A study of Mus musculus with 2 samples.

Results

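Small RNA carried by exosomes of polarised mouse macrophages was examined for 8 mature miRNAs of the loci of miR-143 with miR-145a and of miR-199 with miR-214, of 1976 mature miRNAs listed. They were chosen by name, as miRNAs widely used to mark fibroblasts and smooth muscle: mmu-miR-143-3p, mmu-miR-145a-5p, mmu-miR-145a-3p, mmu-miR-199a-3p, mmu-miR-199a-5p, mmu-miR-199b-3p, mmu-miR-199b-5p and mmu-miR-214-3p, written below without the species prefix. The series holds 2 libraries. One is from exosomes of bone marrow-derived macrophages polarised for 1 day with IFN-γ at 20 ng/mL (M1), and the other from those polarised with IL-4 at the same dose (M2). In both groups marrow of C57BL/6 mice aged 5 to 6 weeks had been grown for 7 days with M-CSF at 10 ng/mL, and the polarised cells were then kept for 2 days without serum before their medium was collected. Whether marrow of several animals was pooled is not given in the sources used here. An unpolarised library was not analysed here, so M1 and M2 are compared only with each other. With 1 library per group no value has a replicate error, and every difference below is between 2 libraries and not between 2 conditions.

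Exosomes are small membrane vesicles shed by cells, with RNA among their cargo. miR-143 and miR-145 are processed from neighbouring hairpins, are abundant in smooth muscle and favour its contractile state. miR-199a and miR-214 come from a shared transcript, Dnm3os, that is active in mesenchymal tissues, and both are widely studied in activated fibroblasts. A hairpin gives up to 2 mature miRNAs, 1 from each arm, named 5p and 3p, and the seed at bases 2 to 8 of a mature miRNA is the stretch that mainly selects its targets.

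The sequences of the miR-199 and miR-214 miRNAs are shown first, because the reading of the miR-199 values depends on which of them are identical. RefSeq (GRCm38.p6) holds a mature sequence for 4 of the 8 members, written here 5′ to 3′ with the seed in capitals.
miR-199a-3p: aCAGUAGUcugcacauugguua
miR-199b-3p: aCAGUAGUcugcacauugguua
miR-199a-5p: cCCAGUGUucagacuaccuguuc
miR-214-3p: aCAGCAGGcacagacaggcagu
miR-199a-3p and miR-199b-3p are the same at all 22 bases, so a read of one cannot be told from a read of the other by its sequence. The seeds form 3 groups: CAGUAGU of the miR-199 3p pair, CCAGUGU of miR-199a-5p and CAGCAGG of miR-214-3p. Among listed miRNAs with a sequence in that table, miR-761 was the only non-member with one of these seeds, that of miR-214-3p, and it was listed at 0 in both libraries. The members without an entry in the table are miR-143-3p, miR-145a-5p, miR-145a-3p and miR-199b-5p.

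The shared 3p arm of miR-199 occurs in 3 hairpins, shown here because they set how many places in the genome each entry can draw reads from. The 3p arm is in capitals, as it is for Mir214.
Mir199a-1: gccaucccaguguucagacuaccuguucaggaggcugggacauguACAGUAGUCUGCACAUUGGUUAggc
Mir199a-2: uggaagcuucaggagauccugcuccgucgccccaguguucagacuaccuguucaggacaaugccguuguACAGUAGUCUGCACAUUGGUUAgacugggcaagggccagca
Mir199b: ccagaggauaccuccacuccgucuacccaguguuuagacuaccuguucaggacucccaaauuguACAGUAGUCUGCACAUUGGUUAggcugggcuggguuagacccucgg
Mir214: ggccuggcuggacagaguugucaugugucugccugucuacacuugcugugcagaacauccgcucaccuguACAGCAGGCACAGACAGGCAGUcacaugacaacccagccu
miR-199a-3p has 2 of these hairpins, Mir199a-1 and Mir199a-2, and miR-199b-3p has 1, Mir199b. The complete miR-199a-5p sequence was found in 2 hairpins, both of miR-199a.

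All positions are on GRCm38, the assembly called mm10, with genes from GENCODE M21. Mir199a-2 lies at chr1:162217814-162217923 on the plus strand and Mir214 at chr1:162223368-162223477, 5444 bases further on the same strand. Both are within an exon of Dnm3os, which is transcribed in the same direction, and within an intron of Dnm3 on the opposite strand. Mir199a-1 lies at chr9:21496495-21496564 on the minus strand, in an intron of Dnm2 and antisense to it. Mir199b lies at chr2:32318460-32318569 on the plus strand, in an intron of Dnm1 and antisense to it. The miR-199 hairpins thus each lie antisense within a dynamin gene. Mir145a, at chr18:61647825-61647894, and Mir143, at chr18:61649196-61649258, are both on the minus strand with 1301 bases between them. They lie between annotated genes, next to the long non-coding RNA genes Carmn, 367 bases from Mir143, and Bvht, 353 bases from Mir145a.

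The deposited value of a miRNA is on a log2 scale, read here as log2(level + 1), and the level is in the units of that scale, with no correction for length. Levels summed to 686353 units in M1 and 734637 units in M2 exosomes, and the total number of reads is not known from the files. Low levels of miRNAs with no read in the other library fell on even steps, and 1 step was read as 1 sequencing read, worth 0.80 units in the M1 library and 1.22 units in the M2 library. Low levels of miRNAs present in both libraries lay on bands shifted slightly off these steps, so read numbers below are approximate. A count of 0 allows up to 3 reads, which is 2.40 units in the M1 library and 3.67 units in the M2 library; this covers counting error only. In M2 exosomes 175 miRNAs had a value above 0 but below that of 1 read, between 0.03 and 0.135, and such values are treated here as 0 reads. The comparison took the 337 miRNAs that had 10 units or more in either library, and a miRNA was counted as different at 2-fold, a log2 ratio of 1. Macrophage and myeloid miRNAs were present in both libraries: none of the 8 on the list was at 0. miR-146a-5p alone held 17.6% of the level in M1 and 6.89% in M2 exosomes, and the other 7 together held 4.14% and 6.76%.

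The members were a small part of both libraries, and the miR-199, miR-145a and miR-214 members had their higher values in M1 exosomes while miR-143-3p did not. The summed level of all 8 was 2366 units in M1 and 1207 units in M2 exosomes, or 0.345% and 0.164% of the level. Of the 7 members compared, 4 were at least 2-fold higher in M1: both arms of miR-145a, miR-199a-3p and miR-199b-3p. The share of all compared miRNAs that were so was 26.1%. No member, 0 of 7, was at least 2-fold higher in M2, against 22.8% of all compared. The median log2 ratio, M1 minus M2, was 1.58 over the 7 members and 0.04 over all 337. Both arms of miR-145a entered the comparison only through their M1 level, which fixed their direction though not a 2-fold difference. The miR-199 3p pair shares its sequence, so the 4 are not 4 separate observations. With the minimum of 10 units required in both libraries, 5 members were left and their median was 0.999. Of these, 2 were at least 2-fold higher in the M1 library, against 22.4% of the 246 miRNAs compared under that rule, and 0 in the M2 library, against 15.0%.

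**Figure D1:**
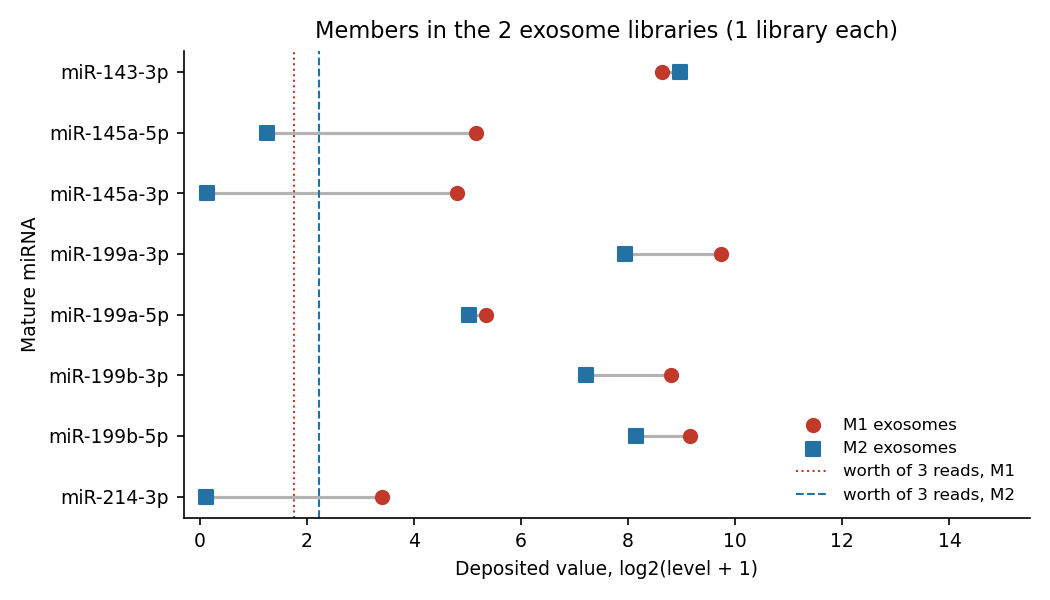
Deposited value, log2(level + 1), of each of the 8 members in M1 exosomes (circles) and M2 exosomes (squares), 1 library each, with lines at the worth of 3 reads. miR-145a-5p, miR-145a-3p and miR-214-3p lie left of the M2 line in M2 exosomes, and miR-143-3p has its higher value in M2 exosomes.

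miR-143-3p, the main product of its hairpin, had a value of 8.63 in M1 and 8.96 in M2 exosomes. These are levels of 395 and 498 units, so M2 exosomes held 1.26-fold more, within the 2-fold line. Among all listed miRNAs it ranked 94th by level in M1 and 78th in M2 exosomes. It was the only compared member with a ratio below 0, 1 of 7, against 166 of all 337 compared miRNAs. The other arm, miR-143-5p, was listed at 0 in both libraries, which allows up to 2.40 units in M1 and 3.67 units in M2 exosomes.

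miR-145a-5p, which is co-transcribed with miR-143 in smooth muscle, had a value of 5.17 in M1 and 1.25 in M2 exosomes. Its levels were 35.0 units and 1.39 units, near 44 reads in M1 and 1 read in M2 exosomes at the read worth of the low values. The ratio of those reads, scaled by what each is worth, was 28.8-fold, with a 95% interval from 4.91-fold to 1160-fold (exact Clopper-Pearson, for counting error only, and resting on the low-level steps). The size of this difference is therefore poorly known. miR-145a-5p entered the comparison only through its M1 level, which the interval does not cover, so no fold is concluded from it. Among the 56 miRNAs whose M2 level was near 1 read and whose M1 level was above 0, miR-145a-5p had the 2nd highest M1 level. This class is set by a low M2 level, so the rank only describes the M1 level and is no support for a difference.

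miR-145a-3p, the passenger arm of the same hairpin, had a value of 4.81 in M1 and 0.135 in M2 exosomes. The M1 level was 27.1 units, near 34 reads, and the M2 value lay below that of 1 read. Set against the 3 reads that a count of 0 allows in the M2 library, the M1 level was 7.38-fold higher. That figure leaves out the counting error of the M1 reads, so it is not a lower bound. The deposited values give a log2 ratio of 4.67, which depends on the value below 1 read and is no bound. Among the 175 miRNAs whose M2 value lay above 0 and below 1 read, it had the highest M1 level. That class too is set by a low M2 level, so the rank is no support for a difference.

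The members of this locus differed from each other within a library more than miR-143-3p differed between libraries. miR-143-3p was 11.3 times the level of miR-145a-5p in M1 and 359 times in M2 exosomes, where the latter rests on 1 read. It made up 86.4% of the summed level of the locus in M1 and 99.7% in M2 exosomes. The locus sum was 457 units in M1 and 499 units in M2 exosomes, a log2 ratio of -0.13, so the sum follows miR-143-3p and does not show the miR-145a difference. Both miR-145a arms were present at similar levels in M1 exosomes, with the 5p arm 1.29 times the 3p arm. The related entry miR-145b has its own hairpin at chr18:69022199-69022273, between annotated genes. It had a value of 2.89 in M1 exosomes, near 8 reads, and a value below 1 read in M2 exosomes. Set against 3 reads in the M2 library, that is 1.75-fold higher in M1, with the counting error of the M1 reads left out. The miR-145 entries thus had the same direction, each with near 1 read or fewer in the M2 library. There miR-143-3p, of the hairpin neighbouring Mir145a, reached 498 units. Whether miR-145b and miR-145a-5p share reads was not checked, so these entries may not be separate observations. Of the smooth muscle markers, miR-143 and miR-145a were thus both present in the M1 library, and miR-143-3p stood nearly alone in the M2 library.

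**Figure D2:**
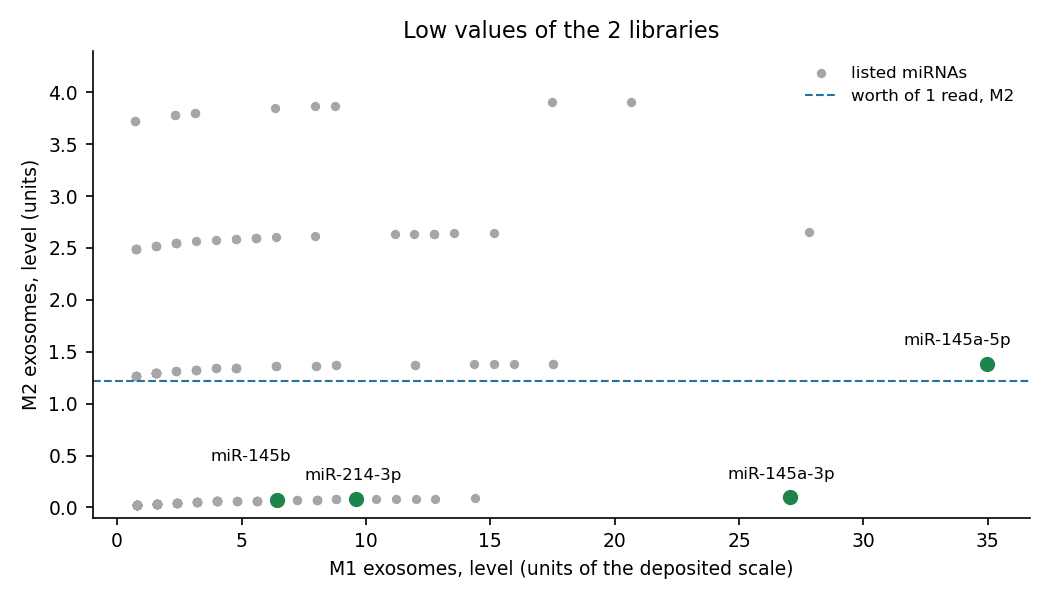
Level in M2 exosomes against level in M1 exosomes, in units of the deposited scale, with the worth of 1 read in M2 exosomes dashed. Drawn are listed miRNAs present in M1 exosomes at up to 40 units and low in M2 exosomes. Those with higher M2 levels, miR-199a-5p among them, are left out. Points fall on bands, and miR-145a-3p, miR-214-3p and miR-145b lie on the lowest band while miR-145a-5p lies on the band of 1 read.

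miR-199a-3p, which is known to target mTOR and Met, was the most abundant member in M1 exosomes. Its value was 9.73 in M1 and 7.94 in M2 exosomes, levels of 850 and 245 units, which is 3.46-fold. miR-199b-3p, of the same sequence, had 8.80 and 7.22, levels of 443 and 148 units, which is 2.99-fold. Both had more in M1 exosomes and both ratios, 1.79 and 1.58 on the log2 scale, lay past the 2-fold line. Summed as 1 sequence they reached 1293 units in M1 and 393 units in M2 exosomes, a 3.28-fold difference.

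The 2 identical entries did not have equal values. In M1 exosomes miR-199a-3p held 65.7% of their summed level and miR-199b-3p 34.3%, and in M2 exosomes they held 62.4% and 37.6%. Of the 3 hairpins with this arm, miR-199a-3p has 66.7% and miR-199b-3p 33.3%. How reads that match several places were assigned is not given in the sources used here, and its part in these shares was not tested. The values do not separate the loci on chromosomes 1, 2 and 9.

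miR-199b-5p was the most abundant 5p member, at 9.15 in M1 and 8.15 in M2 exosomes, or 567 and 283 units. Its log2 ratio of 0.999 put it just inside the 2-fold line, and scaling each library to its summed level moved it to 1.10, past the line. miR-199a-5p, a miRNA studied in lung fibroblasts, was low in both libraries, at 5.34 in M1 and 5.03 in M2 exosomes, or 39.6 and 31.6 units. Its difference of 1.24-fold lay within the 2-fold line. The level of miR-199b-5p was 14.3 times that of miR-199a-5p in M1 and 8.95 times in M2 exosomes.

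The arms of miR-199 differed in opposite directions. In the miR-199a entries the 3p arm was 21.5 times the 5p arm in M1 and 7.75 times in M2 exosomes. In the miR-199b entries the 5p arm was 1.28 times the 3p arm in M1 and 1.91 times in M2 exosomes. As the 3p reads of the family cannot be assigned to a hairpin by sequence, these ratios describe entries and not hairpins. Over the family, the 3p entries summed to 1293 units in M1 exosomes against 606 units for the 5p entries. In M2 exosomes the sums were 393 and 315 units. The 3p sum was thus 3.28-fold higher in M1 exosomes and the 5p sum 1.92-fold higher.

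**Figure D3:**
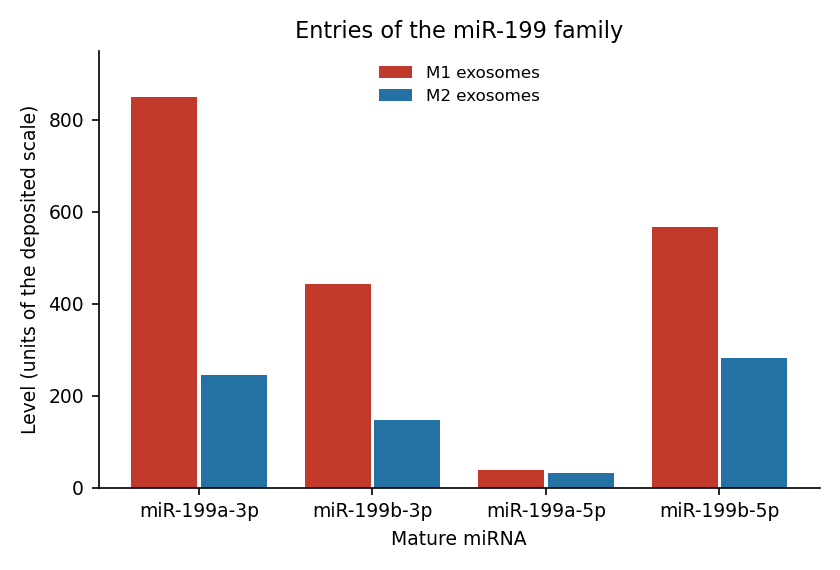
Level of the 4 miR-199 entries in M1 and M2 exosomes, in units of the deposited scale, 1 library per bar and so without error bars. The M1 bar is the taller one for all 4 entries, and miR-199a-5p is low in both libraries.

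miR-214-3p, encoded 5444 bases from Mir199a-2 in Dnm3os, was the least abundant member in M1 exosomes. Its value was 3.41 in M1 exosomes, a level of 9.61 units or near 12 reads, and 0.111 in M2 exosomes, below 1 read. It missed the minimum of 10 units by less than 1 read and is therefore not among the 7 members compared. Set against 3 reads in the M2 library it was 2.62-fold higher in M1. The counting error of the M1 reads is left out, so this is not a lower bound. The other arm, miR-214-5p, was listed at 0 in both libraries. miR-214-3p was thus far below the miR-199 members in both libraries, although Mir199a-2 and Mir214 share a host transcript.

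The miR-199 and miR-214 members together summed to 1909 units in M1 and 708 units in M2 exosomes, a 2.69-fold difference and a log2 ratio of 1.43. Relative to the sum of miR-143-3p and both miR-145a arms this was 4.18 times in M1 and 1.42 times in M2 exosomes. The locus groups thus differed in how they compared between the libraries, and this difference was not tested, since each sum exists once per library. For a mixture of vesicles, fewer vesicles from a cell type and less of a miRNA in each of them cannot be told apart.

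**Figure D4:**
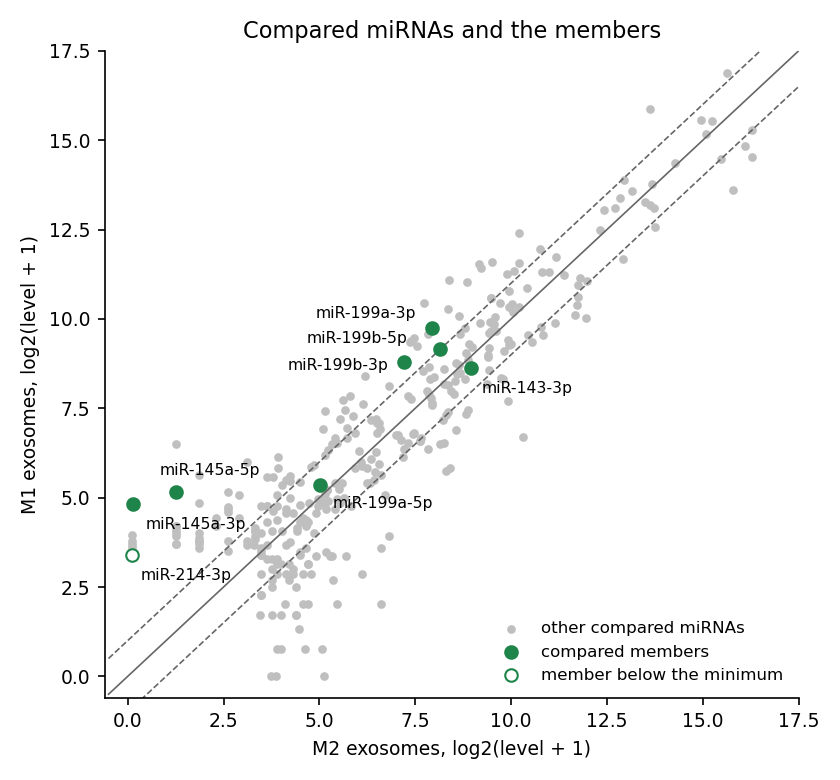
Value in M1 exosomes against value in M2 exosomes, both log2(level + 1), for the 337 compared miRNAs and the members, with the line of equality and dashed lines at 2-fold. miR-199a-3p and miR-199b-3p lie above the upper 2-fold line, miR-199b-5p lies on it, and miR-143-3p and miR-199a-5p lie between the lines.

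Levels of the members spanned a wide range in both libraries. In M1 exosomes the order from high to low was miR-199a-3p, miR-199b-5p, miR-199b-3p, miR-143-3p, miR-199a-5p, miR-145a-5p, miR-145a-3p and miR-214-3p. In M2 exosomes miR-143-3p came first, followed by miR-199b-5p, miR-199a-3p, miR-199b-3p and miR-199a-5p, with the remaining 3 near 1 read or below. Without replicates it cannot be said which neighbours in these orders differ beyond their spread.

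The miRNAs nearest to each compared member in the plane of the 2 values, by Euclidean distance over 2 libraries, came from different groups. miR-199a-3p lay closest to miR-99b-3p, at a distance of 0.04, and to the myeloid miR-142a-5p, at 0.20. miR-143-3p lay closest to miR-22-5p, at 0.24, and miR-484, at 0.33. The nearest to miR-199b-3p were miR-30e-5p, at 0.55, and miR-185-5p, at 0.56, and to miR-199b-5p miR-142a-5p, at 0.52, and miR-192-5p, at 0.55. miR-199a-5p had miR-148b-5p and let-7f-1-3p at 0.20 each. miR-145a-5p had miR-6995-5p at 0.69 and the erythroid miR-144-5p at 0.77, and miR-145a-3p had miR-7021-5p at 0.87 and miR-654-3p at 1.02. With 2 libraries such a distance only says that levels are alike.

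A list of other miRNAs linked to mesenchymal cells did not share 1 direction with the members. Of 12 listed, 8 were compared, and their median log2 ratio was -0.34. Of the 8, 1 passed 2-fold towards M1 and 2 towards M2, against 26.1% and 22.8% of all compared miRNAs, and 5 stayed inside it. The most abundant of them, miR-27b-3p, miR-24-3p and miR-140-3p, had log2 ratios of 0.60, 0.10 and 0.17 and, like miR-143-3p, lay within 2-fold. miR-23b-3p had -0.79. The following 3 are named after their values were seen. miR-10b-5p, a Hox-cluster miRNA of mesenchymal cells, was the 1 higher in M1 exosomes, at 11.59 against 9.50, which is 2.09 on the log2 scale. The 2 towards M2 were miR-152-3p, at -1.74, and miR-218-5p, which was compared only through M2 and had an M1 level below 3 reads.

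miRNAs of the imprinted Dlk1-Dio3 region that mesenchymal cells express had the direction of the miR-199 members. Of 10 listed, 7 were compared and 7 passed 2-fold towards M1, against 26.1% of all compared miRNAs, at a median log2 ratio of 1.93. Of these, miR-410-3p, named after its values were seen, entered only through its M1 level, which fixed its direction though not a 2-fold difference. miR-127-3p had 1.93, miR-379-5p 1.99, miR-409-3p 2.11 and miR-382-5p 1.32, on both sides of the 1.79 of miR-199a-3p. Of the erythroid miRNAs 4 of 4 compared passed 2-fold towards M1, against the same 26.1%, with a median of 2.54 and a ratio of 2.72 for miR-451a. Among them miR-144-5p entered only through its M1 level. miR-486a-5p and miR-486b-5p had near-equal levels, 2958 and 2756 units in M1 and 576 and 588 units in M2. Whether these entries share reads was not checked, so the 4 may not be 4 separate observations. The summed level of the erythroid list was 1.16% of the M1 level and 0.204% of the M2 level.

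Lists of other cell types were mixed. Both endothelial entries lay within 2-fold, with miR-126a-3p at 0.71. Of 7 striated muscle miRNAs only 2 were compared. miR-206-3p had -0.27. miR-133b-3p was compared only through M2, at 13.7 units against 0.70 units in M1. Its log2 ratio of -3.12 rests on near 1 read in M1, so its size is poorly known. miR-1a-3p lay below the minimum. Of 8 compared hepatocyte and epithelial miRNAs 3 passed 2-fold towards M1 and 0 towards M2, against 26.1% and 22.8% of all compared. miR-122-5p, at 2.24, held 8.71% of the M1 level and 1.72% of the M2 level, and the other 9 of the list summed to 757 units in M1 and 578 units in M2. Of these, miR-200b-3p had its higher value in M2 exosomes, inside 2-fold at -0.61, while miR-192-5p and miR-194-5p had 0.35 and 0.34. The remaining compared entries of the list are named after their values were seen. miR-200a-3p and miR-200c-3p passed 2-fold towards M1, at 1.83 and 1.37. miR-429-3p and miR-203-3p had -0.495 and -0.455. Of the 8 myeloid miRNAs 3 passed 2-fold towards M1 and 1 towards M2, against the same 26.1% and 22.8%. miR-146a-5p had 1.25, and miR-21a-5p lay inside the line at -0.99. The 1 towards M2 was miR-142a-3p, at -1.07, named after its value was seen, whose other arm miR-142a-5p had 1.72. The part of RNA from other cell types in the values of the members was not tested.

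**Figure D5:**
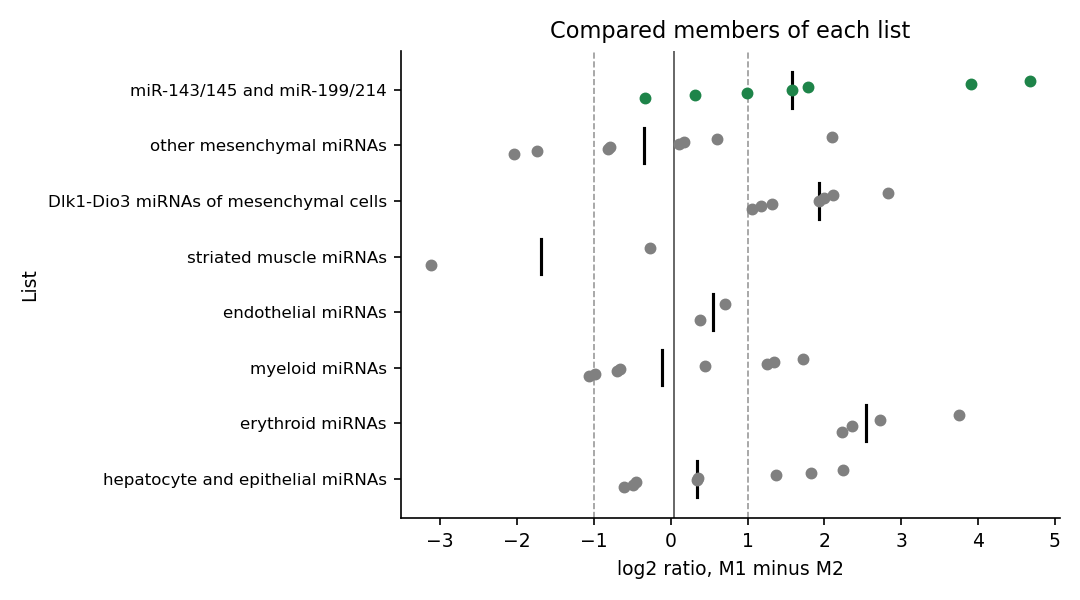
Log2 ratio, M1 minus M2, of the compared miRNAs of each list (points) with the list's median (short bar), the median of all 337 compared miRNAs (solid line) and 2-fold (dashed lines). The members span -0.33 to 4.67, and the Dlk1-Dio3 and erythroid lists lie wholly right of the upper 2-fold line.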

How the data were processed

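The authors deposited 1 log2 value per mature miRNA and library. Per the submitters' processing notes, Bowtie2 and bedtools were used with mm10; their roles and versions, the counting, the handling of multiply matching reads and the normalization are not given there. Per the labels' protocols, exosomes were pelleted by ultracentrifugation after a 0.22 μm filter, and 500 ng of Trizol-extracted RNA made each NEBNext small RNA library. Values were converted to levels (2 raised to the value, less 1). The worth of 1 read is the smallest step; among miRNAs with no read in the other library, 99.4% of 175 M1 levels and 95.3% of 129 M2 levels were whole multiples of it within 0.1 read, against 76.5% and 53.0% of the 115 miRNAs above 0 reads and below 10 units in both. Because M2 values below 1 read moved with the M1 value, the libraries were taken as normalized together. Ratios are differences of deposited values on the log2(level + 1) scale and understate differences of low miRNAs. No test was made, since each group has 1 library. The named miRNAs are the members, the other arms and copies of their loci, up to 4 per list by mean level and the 2 nearest to each compared member. Those said to be named after their values were seen are additional to this rule. Members and lists were chosen with earlier results of these data known. Alternatives varied the minimum, scaling, pseudocount, fold and the treatment of the identical entries. The procedure was run on simulated data with planted changes and counting error only, which does not cover variation between libraries or the normalization. Python 3.11.15, numpy 2.4.6 and pandas 2.3.3 were used, with scipy 1.17.1 for the interval.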

Additional observations from a re-analysis of the deposited data

How the results depend on the processing

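Of the 7 members compared, 4 passed 2-fold towards M1. That number was 2 of 4 compared with a minimum of 100 units in at least 1 library (22.8% of all compared), 2 of 5 with the minimum of 10 units in both libraries (22.4%), and 2 of 7 at 4-fold (11.3%), against 26.1% as reported. In the other settings run, 1.5-fold among them, it lay between 3 and 5, against 10.2% to 33.8% of all compared. No member passed the fold of the setting towards M2 in any setting run, against 8.01% to 34.0% of all compared. The median log2 ratio of the members was 0.999 with the minimum in both libraries, just inside 2-fold. The miR-199b-5p ratio crossed the 2-fold line with each library divided by its summed level, at 1.10, and with a pseudocount of 0.1 units, at 1.001, and the miR-214-3p ratio fell short of it with a pseudocount of 10 units, at 0.96. The ratio of miR-145a-3p ranged from 1.88 to 7.10 and that of miR-145a-5p from 1.98 to 4.56 over the 5 scalings and pseudocounts, so how large they are is uncertain. No direction of a member or locus sum turned. Division by the summed level moved the median of all compared miRNAs to 0.13. Depth limits miR-145a and miR-214-3p, which had near 1 read or fewer in M2 exosomes. No paired analysis was possible because M1 and M2 are single libraries, so leaving 1 out ends the comparison.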

Other observations

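Among entries with a mature sequence in RefSeq, another pair with 1 shared sequence reached 10 units. These are let-7a-1-3p and let-7c-2-3p, which have 1 hairpin each. In M1 exosomes they held 48.7% and 51.3% of their summed level, next to the 50.0% of hairpins that each has, at 29.3 and 30.8 units. In M2 exosomes they held 39.1% and 60.9%, at 31.6 and 49.2 units. The shares of the miR-199 3p pair, 65.7% and 62.4% for miR-199a-3p against 66.7% of hairpins, were closer to the hairpin shares in M1 exosomes as well. The log2 ratios of the 2 let-7 entries, -0.11 and -0.66, differ by more than those of the miR-199 3p entries, although each pair has 1 sequence. The let-7 entries had far lower levels, so counting error weighs more on their shares and ratios, and its size was not computed.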
